A study of Mus musculus with 8 samples.

Results

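The measurements described here are the RNA levels of 10 genes for adhesion molecules of mouse CD8+ T cells: the integrin subunit genes Itgal, Itgb2, Itga4, Itgb1, Itgb7, Itgae and Itgav, and the genes Cd44, Selplg and Icam1. They were chosen by name, from 56805 gene symbols in the deposited count table, and all 10 were among the 16006 genes with enough counts to be tested. The cells were OT-I T cells, whose transgenic receptor recognises a peptide of chicken ovalbumin, from young adult mice of either sex, bred from Rag2/OT-I and Rosa26-Cas9 lines on C57BL/6J, in which Cas9 is made constitutively. They were activated in vitro with beads against CD3 and CD28, kept in IL-2, IL-7 and IL-15, and given a lentiviral vector with 1 of 2 kinds of guide. These were sgElovl1, a guide against the fatty acid elongase gene Elovl1 (labelled Elovl1 KO), and sgNT, a non-targeting guide, and both groups carried Cas9, the vector and its CD90.1 reporter, on which the cells were sorted 3 days after transduction. The sample labels place all 8 samples in vitro, although the design text of the series speaks of cells taken from tumours, and the labels and the study's methods were followed here.

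The samples comprised 2 replicates of each guide in each of 2 experiments. The deposited table held 4 columns, sgElovl1 and sgNT in experiments 2 and 1, and each column was the sum of 2 replicate mice, so no spread between mice could be computed and no SD is given. Total counts were 49068952 to 63623476 per column. Levels are CPM, which set each count against the TMM-adjusted size of its column, and 3 counts were worth 0.0474 to 0.0601 CPM. Changes are log2 fold changes with the standard error (SE) of edgeR's quasi-likelihood fit, and a gene passed when its Benjamini-Hochberg adjusted p over all 16006 genes was under 0.05. That error rested on a dispersion trend shared by all genes and not on the spread of each gene, with 1 residual degree of freedom between columns. RNA of the targeted gene Elovl1 was at 55.8 and 61.3 CPM in the sgElovl1 columns of experiments 2 and 1, against 93.5 and 110.5 CPM in the sgNT columns (log2 fold change -0.80, SE 0.07, edgeR adjusted p = 3.8e-28). Exact permutation of 2 against 2 columns cannot give a p below 0.333.

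Integrins are pairs of an alpha and a beta subunit that cross the plasma membrane, bind ligands on other cells or in the matrix and connect them to actin through talin and kindlin. In T cells, the Itgal and Itgb2 products form LFA-1, the receptor for ICAM-1 at the immune synapse and on vessel walls. The Itga4 product pairs with the Itgb1 product in VLA-4, a receptor for VCAM-1 and fibronectin, or with the Itgb7 product in the gut-homing receptor for MAdCAM-1. The Itgae product, CD103, pairs with that of Itgb7, and the pair binds E-cadherin on epithelia. The Itgav product pairs with several beta subunits, binds vitronectin and other matrix proteins, and can release active TGF-beta. CD44 binds hyaluronan, and the Selplg product PSGL-1, once glycosylated, is a ligand of the selectins that T cells use to roll on vessel walls.

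With sgElovl1, none of the 10 genes passed the test against sgNT, in a comparison in which 192 of 16006 genes (1.20%) passed in edgeR. At an unadjusted p under 0.05 there was 1 (Itgb1). The share of all genes tested at that unadjusted level is not given here. Such counts, here and in the lists below, thus have no background beside them and are no result about a list. Itgb1 also passed with limma-voom, and with both DESeq2 tests 0 of the 10 passed. The background was 0.762% for genes higher in sgElovl1 (122 genes) and 0.437% for genes lower (70 genes), a split that was 132 and 44 under the DESeq2 scaling, 182 and 57 under upper-quartile scaling and 173 and 44 when the mitochondrial and the 20 most counted genes were left out of the scaling. Fold changes of the 10 genes ran from -0.21 for Itgb1 to 0.12 for Itga4. Their median was -0.07 with 8 of 10 below 0, beside a median of -0.01 and 53.5% below 0 over all genes tested, and each of the 10 stayed on its side of 0 under these 3 other scalings. By contrast, 9 of the 10 passed between the experiments, 7 of them higher in experiment 2 and 2 lower, where 55.6% of all genes passed (26.4% higher and 29.2% lower). The median size of change of the 10 genes (log2, sign ignored) was 0.26 against 0.47 over all genes tested, though Itga4 and Itgav differed by more than that. What differed between the experiments is not given in the sources used here, and differences of mice, culture and library preparation cannot be told apart.

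**Figure D1:**
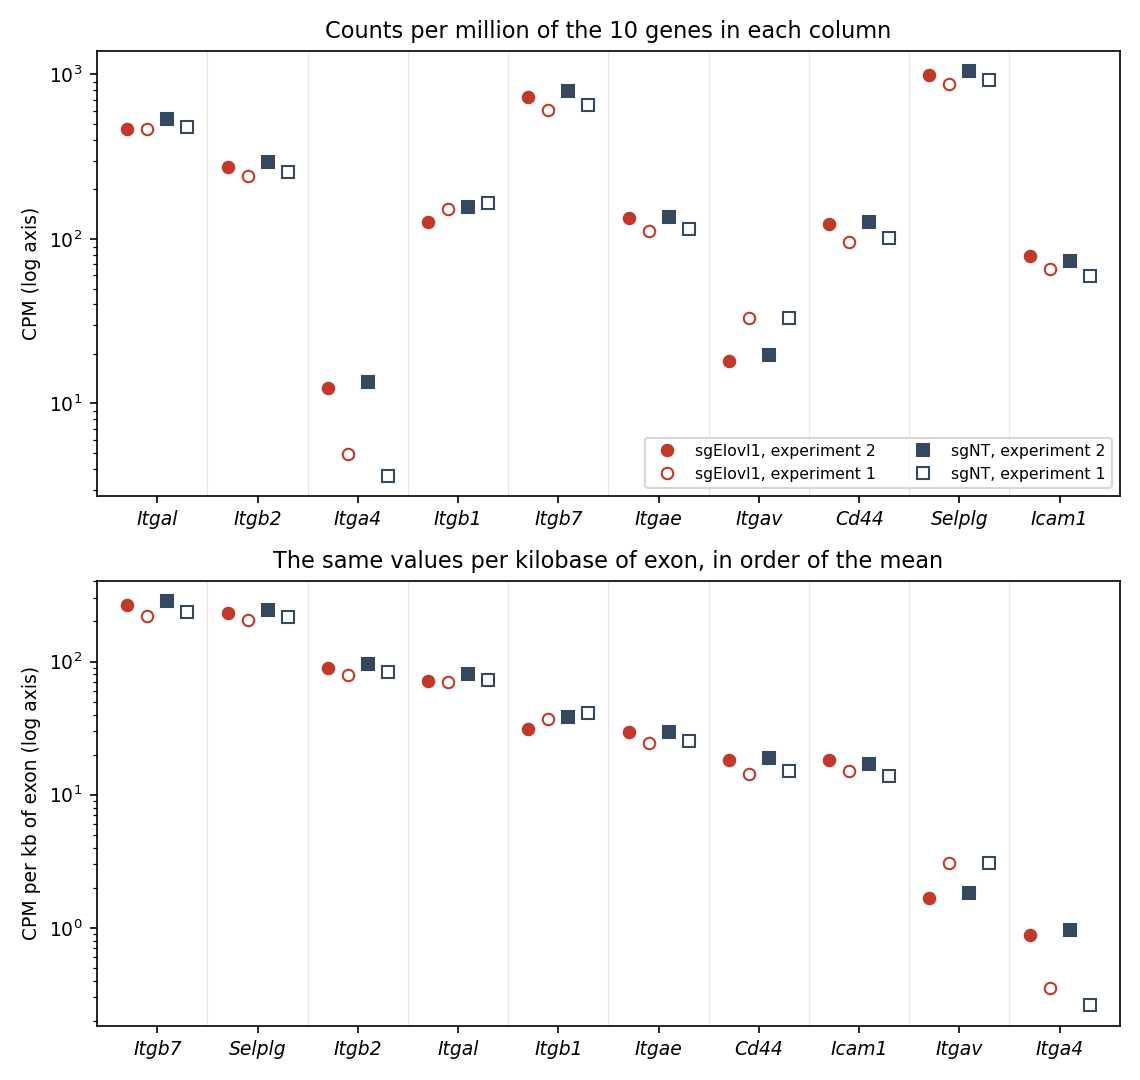
Levels of the 10 genes in the 4 columns, in CPM (upper panel) and in CPM per kilobase of exon (lower panel, in order of the mean), both on log axes. Circles are sgElovl1 and squares sgNT, filled in experiment 2 and open in experiment 1, and each point is the sum of 2 mice. Itga4 was at 12.4 and 13.5 CPM in experiment 2 and under 5 CPM in experiment 1, and Itgav lay the other way round.

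Set per kilobase of merged exon, the 10 genes covered a wide range of levels. Itgb7 was highest, at 221 to 286 CPM per kb over the 4 columns, followed by Selplg at 205 to 246. Their ranges overlapped, although Itgb7 was above Selplg in each of the 4 columns. Both LFA-1 genes came next, Itgb2 at 79.4 to 95.7 and Itgal at 70.6 to 81.3 CPM per kb, again with overlapping ranges and with Itgb2 above Itgal in each column. Itgb1 at 31.0 to 40.7 and Itgae at 24.4 to 29.8 CPM per kb did not overlap with each other or with the genes on either side. Cd44 at 14.2 to 18.7 and Icam1 at 13.7 to 18.1 CPM per kb could not be ordered, since Cd44 was above Icam1 in experiment 2 and in the sgNT column of experiment 1 but below it in the sgElovl1 column of experiment 1. Itgav at 1.68 to 3.09 and Itga4 at 0.261 to 0.965 CPM per kb were lowest. Exon lengths came from GENCODE M21 while the counts include introns, so these levels are approximate.

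Among the LFA-1 genes, Itgal had 467 and 464 CPM in the sgElovl1 columns of experiments 2 and 1, against 534 and 479 CPM in the sgNT columns. Both sgElovl1 columns lay below both sgNT columns. The guides were apart in either direction for 2 of the 10 genes (Itgal and Itgb1, both lower), beside 12.6% of all genes tested. The log2 fold change of Itgal, -0.12 (SE 0.07), did not pass (edgeR adjusted p = 0.525) and was -0.19 in experiment 2 and -0.04 in experiment 1. Its partner Itgb2 had 275 and 242 CPM in the sgElovl1 columns of experiments 2 and 1, against 292 and 255 CPM in the sgNT columns, and here the guides overlapped. The fold change of Itgb2 was -0.08 (SE 0.06, edgeR adjusted p = 0.723). Between the experiments Itgb2 was higher in experiment 2 by 0.19 (SE 0.06, edgeR adjusted p = 0.00654), with 0.18 in sgElovl1 and 0.20 in sgNT. Itgal, the 1 gene of the 10 that did not pass between the experiments, had a difference of 0.08 (SE 0.07, edgeR adjusted p = 0.284), most of it in sgNT (0.16) and little in sgElovl1 (0.0094). With upper-quartile factors Itgal also passed, at 0.17 (edgeR adjusted p = 0.00988), as it did among genes with a mean of at least 5 CPM, at 0.15 (edgeR adjusted p = 0.0397). In the fits with a column left out, here and below, the experiments were compared without a guide term, so a lost call is not due to that column alone. The call of Itgb2 did not hold without 3 of the columns: without the sgElovl1 column of experiment 2 it was 0.24 (edgeR adjusted p = 0.0706), without that of experiment 1 it was 0.15 (0.0646) and without the sgNT column of experiment 2 it was 0.17 (0.232).

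Of the VLA-4 genes, Itga4 had few counts and the widest difference between the experiments. It had 685 and 260 counts in the sgElovl1 columns of experiments 2 and 1, against 674 and 231 counts in the sgNT columns, or 12.4 and 4.94 CPM against 13.5 and 3.65 CPM. Itga4 RNA was 3.04-fold higher in experiment 2 than in experiment 1 (log2 fold change 1.60, SE 0.15, edgeR adjusted p = 1.12e-26), 1.32 in sgElovl1 and 1.89 in sgNT. Only 6.93% of all genes tested differed as much in either direction. For sgElovl1 against sgNT the log2 fold change of Itga4 was 0.12 (SE 0.14, edgeR adjusted p = 0.857), with -0.13 in experiment 2 and 0.44 in experiment 1. By counting error alone (95% Clopper-Pearson interval of the share of counts), these ran from -0.28 to 0.03 and from 0.18 to 0.70. The intervals cover counting error only and leave out the difference between mice, and reads without molecular identifiers are not independent molecules.

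Itgb1, whose product is the beta subunit of most matrix-binding integrins, was the gene of the 10 nearest to the threshold for the guide. It had 126 and 152 CPM in the sgElovl1 columns of experiments 2 and 1, against 156 and 166 CPM in the sgNT columns, so that each sgElovl1 column was below both sgNT columns. The level with sgElovl1 was 86.3% of that with sgNT (log2 fold change -0.21, SE 0.06), -0.30 in experiment 2 and -0.13 in experiment 1. The edgeR adjusted p was 0.0613, from an unadjusted p of 8.4e-04. Itgb1 passed with limma-voom (-0.21, adjusted p = 0.0345) and with the newer default of edgeR's quasi-likelihood fit (-0.21, adjusted p = 0.0466). Between the experiments Itgb1 was lower in experiment 2, at 88.2% of experiment 1 (-0.18, SE 0.06, edgeR adjusted p = 0.00970), but the sgElovl1 column of experiment 1 was below the sgNT column of experiment 2, so that the experiments overlapped. This difference was -0.27 in sgElovl1 and -0.09 in sgNT, and it was lost without the sgElovl1 column of experiment 2 (-0.019, edgeR adjusted p = 0.919), without the sgNT column of experiment 1 (-0.11, 0.237) and with upper-quartile factors (-0.10, 0.170). The number of Itga4 counts per Itgb1 count was 0.0978 and 0.0324 in the sgElovl1 columns of experiments 2 and 1, against 0.0866 and 0.0219 in the sgNT columns, higher in experiment 2 with either guide.

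**Figure D2:**
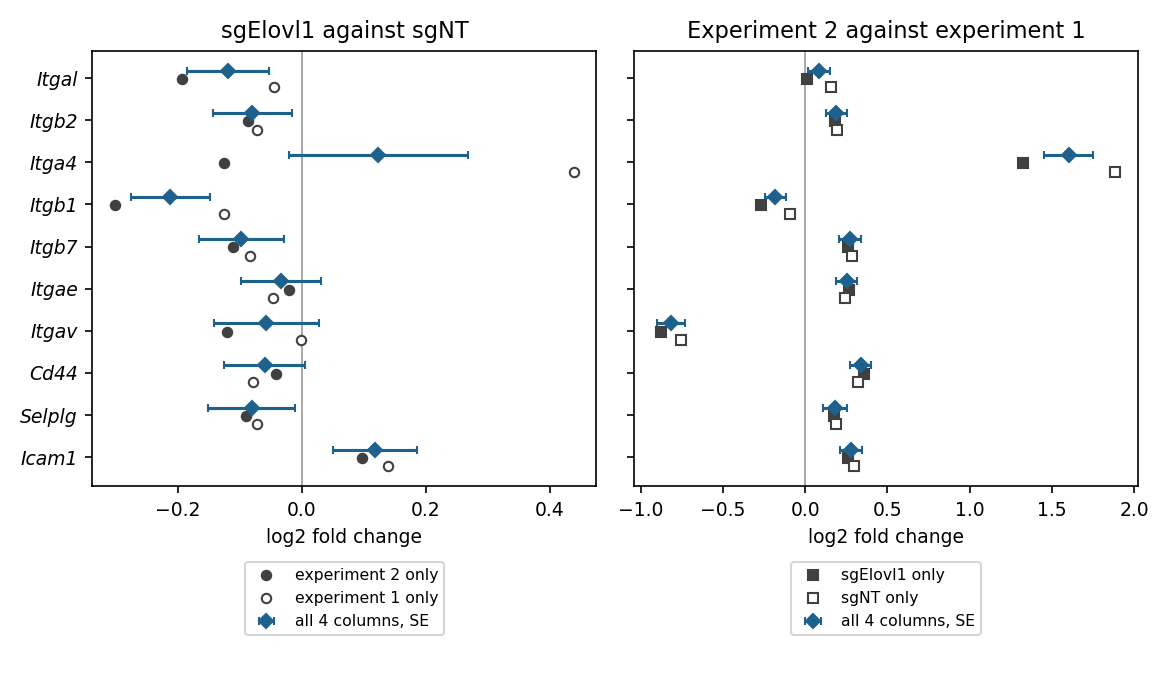
Log2 fold changes of the 10 genes for sgElovl1 against sgNT (left) and experiment 2 against experiment 1 (right). Diamonds with bars are the estimate and SE from all 4 columns, and the other points give the same difference within 1 experiment or within 1 guide, each from a single pair of columns. The scales of the panels differ: the guide estimates lie between -0.21 and 0.12, those of the experiments between -0.81 and 1.60.

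Itgae, the gene of CD103, and its partner Itgb7 were both higher in experiment 2, and neither passed for the guide. Itgb7 had 733 and 612 CPM in the sgElovl1 columns of experiments 2 and 1, against 792 and 649 CPM in the sgNT columns. Both columns of experiment 2 were above both of experiment 1, by 0.27 (SE 0.07, edgeR adjusted p = 1.67e-04). Without the sgNT column of experiment 2 that difference was 0.24 and did not pass (edgeR adjusted p = 0.0920). The guide fold change of Itgb7 was -0.10 (SE 0.07, edgeR adjusted p = 0.671). Itgae, which marks CD8+ T cells resident in epithelia, had 134 and 112 CPM in the sgElovl1 columns of experiments 2 and 1, against 136 and 116 CPM in the sgNT columns. It too was higher in experiment 2, by 0.25 (SE 0.06, edgeR adjusted p = 2.45e-04), and its guide fold change of -0.03 (SE 0.06, edgeR adjusted p = 0.925) was the smallest of the 10. The ratio of Itgae to Itgb7 counts was 0.183 in both sgElovl1 columns, against 0.172 and 0.178 in the sgNT columns of experiments 2 and 1. Itgb7 was at 5.79 and 4.02 counts per Itgb1 count in the sgElovl1 columns of experiments 2 and 1, against 5.08 and 3.90 in the sgNT columns, which places both columns of experiment 2 above both of experiment 1.

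Itgav was the other gene with a wide difference between the experiments, and it ran opposite to Itga4. It had 1003 and 1745 counts in the sgElovl1 columns of experiments 2 and 1, against 983 and 2104 counts in the sgNT columns, or 18.1 and 33.2 CPM against 19.7 and 33.2 CPM. Itgav RNA in experiment 2 was 56.9% of that in experiment 1 (log2 fold change -0.81, SE 0.09, edgeR adjusted p = 1.63e-20), with -0.87 in sgElovl1 and -0.76 in sgNT, and 26.3% of all genes tested differed at least as much in either direction. The guide fold change was -0.06 (SE 0.09, edgeR adjusted p = 0.897), -0.12 in experiment 2 and -0.0023 in experiment 1. Both integrin genes with a wide difference kept their call between the experiments under all 14 alternatives tried, Itga4 at 1.39 to 1.82 and Itgav at -0.85 to -0.73.

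Because Itga4 and Itgav differed most and in opposite directions, the 250 bases before their annotated starts are shown, from RefSeq on GRCm38.p6, which is not the build used for the counts (GRCm39). Each is written 5′ to 3′ on the strand of the gene, with the GC box GGGCGG, searched on both strands, in capitals.
Itga4, chr2:79255176-79255425, plus strand: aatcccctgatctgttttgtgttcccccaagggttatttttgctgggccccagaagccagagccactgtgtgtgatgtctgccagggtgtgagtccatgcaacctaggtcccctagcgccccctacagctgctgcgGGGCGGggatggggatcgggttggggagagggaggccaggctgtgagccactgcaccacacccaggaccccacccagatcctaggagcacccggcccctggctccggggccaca
Itgav, chr2:83724147-83724396, plus strand: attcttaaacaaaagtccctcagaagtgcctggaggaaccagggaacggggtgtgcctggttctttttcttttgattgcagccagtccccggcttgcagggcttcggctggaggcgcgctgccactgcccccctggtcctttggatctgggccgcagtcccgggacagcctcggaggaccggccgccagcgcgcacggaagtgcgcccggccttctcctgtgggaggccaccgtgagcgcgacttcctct
The Itga4 window held 1 GC box, which 32.7% of the 32851 RefSeq windows of this length held on either strand, and 1 match to TGTGGT, the core bound by RUNX factors (14.0% of windows). The Itgav window held no GC box and 2 matches to GGAAGT, a core bound by ETS factors (19.7% of windows held at least 1). Such matches describe the letters only. Windows were at hand for 6 of the 10 genes. Among the others, those of Itgb1 and Icam1 held 1 GC box each and those of Itgb7 and Cd44 none. Itgb1 was lower in experiment 2, and Icam1, Itgb7 and Cd44 were higher.

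Of the molecules outside the integrin family, Cd44, which rises on activated and memory T cells, had 123 and 96.3 CPM in the sgElovl1 columns of experiments 2 and 1, against 127 and 102 CPM in the sgNT columns. It was higher in experiment 2 by 0.34 (SE 0.06, edgeR adjusted p = 6.98e-07), and its guide fold change was -0.06 (SE 0.06, edgeR adjusted p = 0.834). The columns of the experiments were apart while those of the guides interleaved. Selplg had 987 and 875 CPM in the sgElovl1 columns of experiments 2 and 1, against 1050.3 and 920.3 CPM in the sgNT columns. The guide fold change of Selplg was -0.08 (SE 0.07, edgeR adjusted p = 0.760). Its difference between the experiments, 0.18 (SE 0.07, edgeR adjusted p = 0.0194), was the weakest of the upward calls and was lost without the sgElovl1 column of experiment 2 (0.24, edgeR adjusted p = 0.112), without that of experiment 1 (0.15, 0.0592) and without the sgNT column of experiment 2 (0.16, 0.307).

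Icam1, a ligand of LFA-1 that T cells also carry, was 1 of the 2 genes with a guide estimate above 0. It had 78.7 and 65.8 CPM in the sgElovl1 columns of experiments 2 and 1, against 73.6 and 59.8 CPM in the sgNT columns. The guide fold change was 0.12 (SE 0.07, edgeR adjusted p = 0.564), 0.10 in experiment 2 and 0.14 in experiment 1. Within each experiment the sgElovl1 column was the higher, but across them the guides overlapped. Between the experiments Icam1 was higher in experiment 2 by 0.28 (SE 0.07, edgeR adjusted p = 1.23e-04), and without the sgElovl1 column of experiment 2 this was 0.24 (edgeR adjusted p = 0.0834). In all, the 2 experiments did not overlap for 8 of the 10 genes, all but Itgal and Itgb1, beside 75.8% of all genes tested. Without the sgElovl1 column of experiment 2 the number of the 10 that passed between the experiments was 5 (Itga4, Itgb7, Itgae, Itgav and Cd44), and over all genes 6293 passed in that fit, against 8896 with all columns.

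The remaining integrin subunits were followed as a list of 19 genes, of which 14 were tested. None passed for the guide in edgeR (3 had an unadjusted p under 0.05). Between the experiments 8 passed (7 higher in experiment 2 and 1 lower), beside 55.6% of all genes tested (26.4% higher and 29.2% lower). Itgb3, a partner of the Itgav product, had 134 and 72.6 CPM in the sgElovl1 columns of experiments 2 and 1, against 128 and 59.2 CPM in the sgNT columns. Its difference between the experiments was 1.00 (SE 0.07, edgeR adjusted p = 3.10e-49) and thus opposite in sign to that of Itgav, while its guide fold change was 0.18 (edgeR adjusted p = 0.196). Itga2b, known from platelets as the other alpha partner of the Itgb3 product, was at 12.4 and 4.18 CPM in the sgElovl1 columns of experiments 2 and 1, against 11.1 and 3.69 CPM in the sgNT columns. Itgax and Itgam, whose products pair with that of Itgb2, were higher in experiment 2 by 2.28 (SE 0.15) and 2.95 (SE 0.43). Both were low, with Itgax at 12.7 and 2.95 CPM in the sgElovl1 columns of experiments 2 and 1, against 16.0 and 2.95 CPM in the sgNT columns. Itga7, a laminin receptor subunit, was the gene lower in experiment 2 (-1.36, SE 0.14), and had the smallest guide p of the list at an estimate of 0.42 (edgeR adjusted p = 0.116), which was -0.29 in experiment 2 and 0.99 in experiment 1.

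**Figure D3:**
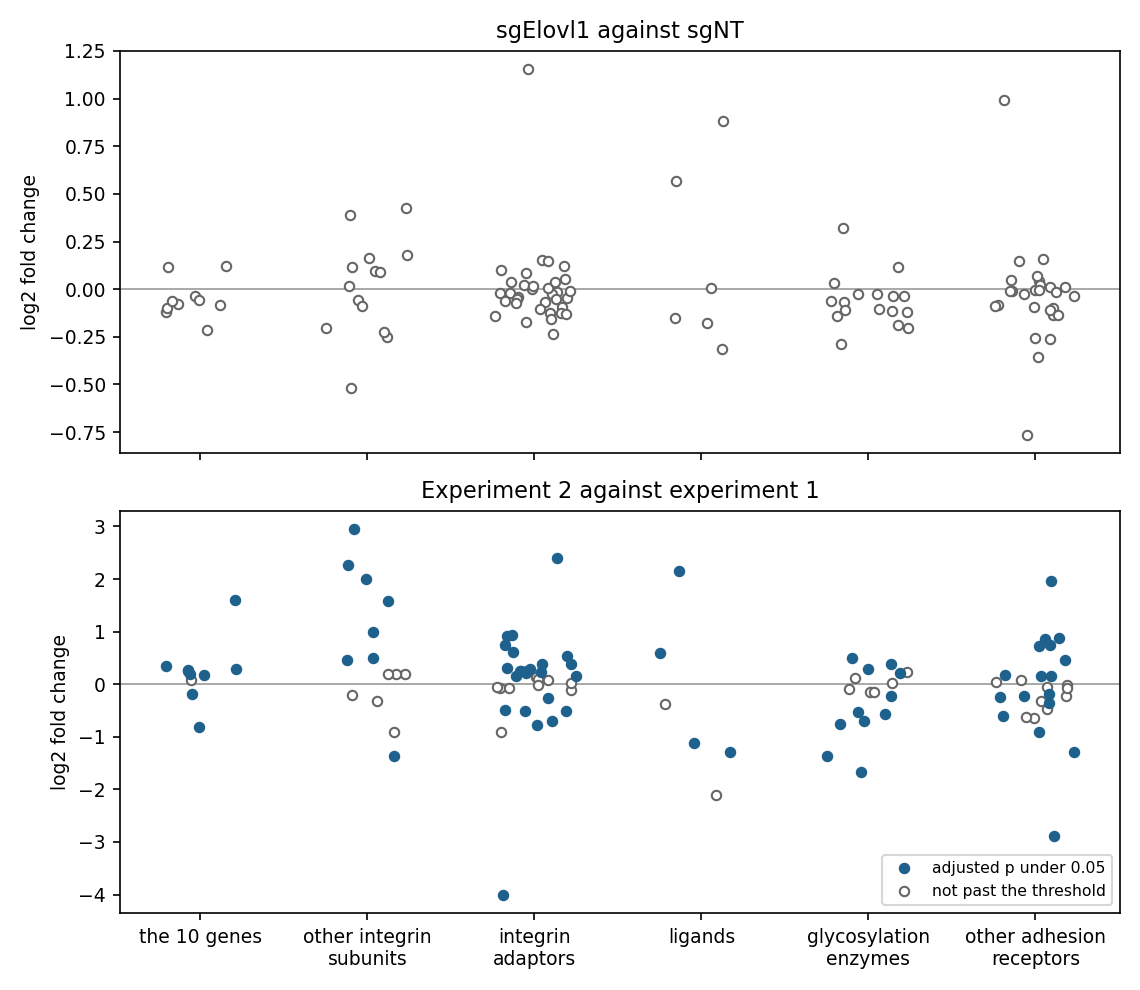
Log2 fold changes of each tested gene in the 10 genes and in 5 lists of related genes, for sgElovl1 against sgNT (upper panel) and experiment 2 against experiment 1 (lower panel). Filled points passed at an edgeR adjusted p under 0.05, and the sideways spread only separates points. No point is filled in the upper panel, and the lower panel holds filled points on both sides of 0. In both panels 2 genes, Jam3 and Parvb, are left out, as both columns of experiment 1 were at 0.

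Of 37 genes for the adaptors and enzymes that link integrins to actin or raise their affinity, 35 were tested. None passed for the guide in edgeR (5 had an unadjusted p under 0.05), with Vasp (-0.17, edgeR adjusted p = 0.204) and Lims1 (-0.16, edgeR adjusted p = 0.345) the nearest. Between the experiments 25 passed, 18 higher in experiment 2 and 7 lower, beside 55.6% of all genes tested (26.4% higher and 29.2% lower). The talin gene Tln1 and the kindlin-3 gene Fermt3, picked with their values already seen, were higher in experiment 2 by 0.22 (SE 0.07) and 0.29 (SE 0.06). Rasgrp2, which activates the GTPase RAP1 ahead of talin, was at 527 and 269.8 CPM in the sgElovl1 columns of experiments 2 and 1, against 500.4 and 276 CPM in the sgNT columns. The RAP1 genes Rap1a (-0.50, SE 0.06) and Rap1b (-0.71, SE 0.06), on the same list, were lower in experiment 2. Cyth1, a regulator of LFA-1 adhesion, was higher in experiment 2 by 0.75 (SE 0.07). Of the alpha-actinin genes, Actn1 was higher (0.94, SE 0.07) and Actn4 lower (-0.77, SE 0.06).

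Many genes for ligands of these receptors had few or no counts. Of 14 listed, 7 were tested and 7 had fewer than 10 counts in each column, Vcam1, Madcam1, Fn1, Vtn and Sele among them. None of the tested ligand genes passed for the guide in edgeR, and 0 had an unadjusted p under 0.05. Between the experiments Icam2, a further LFA-1 ligand, was higher in experiment 2 (0.59, SE 0.09), at 24.5 and 16.9 CPM in the sgElovl1 columns of experiments 2 and 1, against 25.4 and 16.1 CPM in the sgNT columns. Cdh1, the gene of the CD103 ligand E-cadherin, was lower (-1.11, SE 0.11), with 8.93 and 20.6 CPM in the sgElovl1 columns of experiments 2 and 1, against 10.7 and 21.6 CPM in the sgNT columns. Selp had under 2 CPM in each column, and Jam3 had 0.415 and 0.320 CPM in the sgElovl1 and sgNT columns of experiment 2 and no count in experiment 1, where 3 counts are worth 0.0570 and 0.0474 CPM.

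PSGL-1 and CD44 are ligands of selectins only once glycosylated, and 17 of 18 listed genes for the enzymes concerned were tested. None passed for the guide in edgeR, and 3 had an unadjusted p under 0.05. The nearest was St3gal1, a sialyltransferase acting on O-glycans, with 27.8 and 18.6 CPM in the sgElovl1 columns of experiments 2 and 1, against 32.3 and 24.0 CPM in the sgNT columns (-0.29, SE 0.09, edgeR adjusted p = 0.0544). It was followed by the galactosyltransferase gene B4galt5 (-0.20, edgeR adjusted p = 0.112). Between the experiments 4 of these genes were higher in experiment 2 and 7 lower, beside 26.4% higher and 29.2% lower over all genes tested. The genes lower in experiment 2 included the fucosyltransferase gene Fut4 (-1.67, SE 0.16) and the tyrosylprotein sulfotransferase gene Tpst1 (-1.37, SE 0.13). Also lower were Galnt1, which starts O-glycans (-0.70, SE 0.07), and St3gal4 (-0.53, SE 0.07). The 4 higher were St3gal1 (0.50, SE 0.09), St3gal6 (0.38, SE 0.07), B4galt1 (0.29, SE 0.06) and Galnt2 (0.21, SE 0.07). Fut7, on the same list, was above Fut4 in each column and did not pass (-0.09, edgeR adjusted p = 0.274). Likewise Tpst2 was above Tpst1 in each column and did not pass (0.11, edgeR adjusted p = 0.142).

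Among 30 other adhesion and homing receptors, 27 were tested and none passed for the guide in edgeR (4 had an unadjusted p under 0.05). In experiment 2, 9 were higher and 8 lower, beside 26.4% higher and 29.2% lower over all genes tested. The guide estimate of Cd164, a sialomucin, was -0.13 (edgeR adjusted p = 0.408). Pecam1 (0.88, SE 0.08) and Cd6, a receptor for ALCAM (0.72, SE 0.06), were higher in experiment 2, and Ly6a, known as Sca-1, was lower (-0.90, SE 0.07).

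Marker genes were set beside these differences, since several of the adhesion genes are also made by other leukocytes. The 8 T cell markers summed to 5045 and 4658 CPM in the sgElovl1 columns of experiments 2 and 1, against 5087 and 4914 CPM in the sgNT columns. Of them Cd247 (0.61), Cd8a (0.48), Cd8b1 (0.46), Cd3d (0.32) and Cd3g (0.16) were higher in experiment 2. Thy1, whose product in another allelic form is the reporter of the vector, was lower (-0.58), and Cd3e (0.04) and Lck (0.05) did not pass. Of the 10 myeloid markers 6 were tested, and their list, Itgax and Itgam included, summed to 79.9 and 73.5 CPM in the sgElovl1 columns of experiments 2 and 1, against 81.9 and 70.8 CPM in the sgNT columns. Most of that was Cst3 (50.2 to 57.6 CPM), which was lower in experiment 2 (-0.18), and Cd68 (8.37 to 11.1 CPM), while Lyz2 and Cd14 had at most 1 count in any column. In experiment 2 Itgax, at 12.7 and 16.0 CPM in the sgElovl1 and sgNT columns, was above Cd68. Both Itgax and Itgam were higher there than in experiment 1, as given above. The 6 B cell markers summed to 822 and 435 CPM in the sgElovl1 columns of experiments 2 and 1, against 738 and 404 CPM in the sgNT columns. Nearly all of this was Ighm (0.90 higher in experiment 2), beside no count of Ms4a1 in any column, at most 2 of Pax5 and 7.05 to 8.93 CPM of Cd79b. The CD4 T and NK cell markers summed to 39.0 and 31.9 CPM in the sgElovl1 columns of experiments 2 and 1, against 37.4 and 31.4 CPM in the sgNT columns, most of it Zbtb7b (25.4 to 26.9 CPM), which did not pass between the experiments (0.07, edgeR adjusted p = 0.483), with Foxp3 higher in experiment 2 (0.98), Klrb1c under 2 CPM, at most 6 counts of Cd4 and none of Ncr1. Stromal and endothelial markers stayed under 1 CPM in sum, Kdr and Col1a1 included. None of the genes in these 5 marker lists passed for the guide in edgeR, where Ighm and Foxp3 alone had an unadjusted p under 0.05. The part of cell composition in the differences between the experiments was not tested, and in bulk RNA fewer cells of a type and less RNA per cell cannot be told apart.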

How the data were processed

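RNA counts of 10 adhesion genes were read from the table of 4 columns that covers 8 labelled samples. As the methods and the submitters' processing notes state, the authors aligned reads with STAR 2.7.10b to GRCm39, counted them over whole genes, introns included and by strand, with featureCounts 2.0.1 in R 4.3.3, summed replicate mice of an experiment and deposited these raw counts without normalization. Their own test used DESeq2 1.42.0. How reads with several alignments were treated is not given in the sources used here. Counting by strand separates a gene from its antisense partner, and no other annotated gene overlapped any of the 10 on its own strand.

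After filterByExpr and TMM scaling, counts were fitted by edgeR 4.0.16 (glmQLFit in legacy mode, glmQLFTest) in R 4.3.3, with guide and experiment as terms and Benjamini-Hochberg adjustment. The prior degrees of freedom were infinite, so p-values rest on the shared dispersion trend and measure the spread between columns only. The scripts were tested on simulated data. Exon lengths and neighbours came from GENCODE M21 (GRCm38) and promoters from RefSeq (GRCm38.p6). The files' build was not at hand, so no positions of the counted genes are given.

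The 10 genes were named in every case, along with Elovl1. From each list of related genes or cell type markers, the rule named up to 4 genes past the threshold with the smallest adjusted p in each comparison, or, if fewer than 2 passed, the 2 with the smallest p. The values of 2 genes that this rule takes are not reported here. Tln1, Fermt3 and other genes outside this rule were picked with their values already seen. The genes and lists were chosen with earlier results of these data known. Of the listed genes, Fyb1 stood in the table under its older symbol Fyb, and Cd99 was not analysed here.

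Alternatives were DESeq2 size factors, upper-quartile factors, no filter on low counts, a minimum mean of 5 CPM, the DESeq2 1.42.0 Wald and likelihood-ratio tests, limma-voom (limma 3.58.1), no term for the other factor, mitochondrial and the 20 most counted genes left out of the scaling, each column left out in turn (also with no term for the other factor), an offset that takes out the part of the guide effect that follows the experiment effect (guide comparison only) and, added after seeing the data, edgeR without legacy mode.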

Additional observations from a re-analysis of the deposited data

Results flagged for a closer look

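The sgElovl1 log2 fold change of Itga4 was -0.13 in experiment 2 and 0.44 in experiment 1, so that the experiments moved in opposite directions. The difference between the experiments was not tested, since each value compares a single pair of columns. Itga4 was the 1 gene of the 10 with opposite signs, beside 7087 of the 16006 genes tested.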

How the results depend on the processing

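For sgElovl1 against sgNT the number of the 10 genes that passed was 0, and 1 (Itgb1) with limma-voom and 1 with edgeR without legacy mode, which was added after seeing the data. Over all genes, 192 passed, against 94 with no filter on low counts, 35 at a mean of at least 5 CPM, 26 with the DESeq2 Wald test, 26 with its likelihood-ratio test, 72 with the shift between the experiments removed, 0 with no experiment term (19 at an unadjusted p under 0.05) and 0 to 1 with each column left out in turn (77 to 342 at an unadjusted p under 0.05), and it was within 1.5 times of 192 under the other 5 alternatives. For Elovl1 the value was -0.80 with no experiment term and -0.89 to -0.68 with a column left out, and did not pass in those 5 fits, which drop the experiment term. With a column left out, the guide fold change ran from -0.79 to 1.28 for Itga4, -0.55 to 0.38 for Itgav, -0.026 to 0.30 for Icam1, -0.18 to 0.052 for Itgb2, -0.24 to 0.083 for Itgb7, -0.16 to 0.12 for Itgae, -0.24 to 0.14 for Cd44 and -0.17 to 0.048 for Selplg, while it stayed below 0 for Itgb1 (-0.35 to -0.067) and Itgal (-0.20 to -0.0094). With the shift removed it was -0.019 for Itga4 and 0.014 for Itgav. Between the experiments, 9 of the 10 genes passed, 5 to 8 with a column left out and 7 to 9 under the other alternatives, and over all genes 8896, 6293 to 9110 and 6898 to 9110. Itga4, Itgav, Cd44 and Itgae passed under all 14 alternatives and Itgb1 under 6, and Itgb1 also missed the threshold with no filter (-0.16, edgeR adjusted p = 0.0589), at 5 CPM (-0.12, 0.0847), with the DESeq2 tests (-0.17, 0.0774 and 0.0744) and with no guide term (-0.18, 0.138). Itga4 had the fewest counts of the 10 genes and the widest difference between the experiments, whose term the guide fits with a column left out drop. The part of either in its range was not tested. No paired analysis was possible because each deposited column sums the numbered replicates of a group, and guides were set against each other within an experiment only through the experiment term.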
